A study of Mus musculus with 45 samples.

Results

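The genes described here are 222 long noncoding RNAs that were well expressed in mouse forelimb buds kept in organ culture. They were chosen from the values themselves: a gene was taken if the deposited tables list it as lincRNA, lncRNA, antisense or processed transcript and if its mean over 45 libraries was at least 5 CPM, the read count scaled to the total of its library. H19, Meg3 and genes of the X and Y chromosomes were left out. Among 34994 genes in all, 6341 carry one of these types, and 6108 of those lay below the limit. The 222 genes comprise 96 lincRNAs, 74 processed transcripts and 52 antisense RNAs.

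Forelimb buds were taken from CD1 mouse embryos at gestation day 13, and several limbs of both sexes shared a culture bottle. They were kept for 3, 24 or 48 h with the bisphenol BPS at 50 µM or at 10 µM, or with its solvent DMSO alone, and each of the 9 groups has 5 libraries. BPS is bisphenol S, an industrial substitute for bisphenol A. The culture is a model of a limb without blood supply, and each library mixes all cell types of the bud. The strain field of the 5 libraries of 50 µM BPS at 48 h reads CD2 to CD6, 1 library each, while the design text names CD1 alone. Separate cultures or litters are not stated for the 5 libraries of a group, so p-values below rest on the spread among libraries alone, and part of that spread may be technical.

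Libraries held between 15.2 and 23.1 M reads, with a median of 18.2 M. A count of 3 reads corresponds to 0.13 to 0.197 CPM. Libraries of the same group differed by more than sampling noise in each of 90 pairs. The forelimb factor Tbx5 stood at 192 to 324 CPM and the hindlimb factor Pitx1 at 2.33 to 7.38 CPM, so the marker of the labelled limb was present. Per-library CPM values below are scaled by TMM, a factor that corrects for library composition.

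Long noncoding RNAs are transcripts that are not translated into a long protein, and they act or serve in several ways. Some stay in the nucleus and organise bodies there: Malat1 lies in nuclear speckles, and Neat1 is the scaffold of paraspeckles. Some are precursors whose introns or exons are cut to small RNAs. Hosts of small nucleolar RNAs (snoRNAs), such as Gas5 and the Snhg genes, are spliced, the snoRNA is trimmed from an intron, and the remaining exons are degraded by nonsense-mediated decay. MicroRNA hosts such as Mir17hg and Dnm3os are cut by Drosha and Dicer, and the seed of the microRNA, its bases 2 to 8, selects the messenger RNAs it represses. A further group belongs to imprinted clusters, where 1 parental allele is silent: in mouse, Airn silences Igf2r in cis, Kcnq1ot1 silences genes of its cluster, and Rian and Mirg are expressed from the maternal allele of the Dlk1-Dio3 cluster. Many others start beside a protein-coding gene on the opposite strand, from a shared stretch of promoter.

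The mature microRNAs inside these hosts show what several of the transcripts are known for, and the ones below are shown because they belong to the hosts described further on or share a seed with one of them. For Mir99ahg and Dleu2 no comparison of control times passed the test. In RefSeq (GRCm38.p6), 15 of the 222 genes hold a mature microRNA, with 86 names in all. The seed is in capitals, and microRNAs that share a seed stand next to each other.
mmu-miR-100-5p (3110039I08Rik): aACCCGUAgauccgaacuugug
mmu-miR-99a-5p (Mir99ahg): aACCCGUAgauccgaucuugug
mmu-let-7c-5p (Mir99ahg): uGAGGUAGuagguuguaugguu
mmu-let-7d-5p (6720427I07Rik): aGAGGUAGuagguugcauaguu
mmu-miR-17-5p (Mir17hg): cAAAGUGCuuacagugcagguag
mmu-miR-20a-5p (Mir17hg): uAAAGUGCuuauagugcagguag
mmu-miR-15a-5p (Dleu2): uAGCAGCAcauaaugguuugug
mmu-miR-16-5p (Dleu2): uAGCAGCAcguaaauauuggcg
mmu-miR-199a-3p (Dnm3os): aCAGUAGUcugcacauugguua
mmu-miR-214-3p (Dnm3os): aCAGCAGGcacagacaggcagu
mmu-miR-206-3p (Gm28653): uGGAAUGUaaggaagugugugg
mmu-miR-133b-3p (Gm28653): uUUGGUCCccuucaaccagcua
mmu-miR-22-3p (Mir22hg): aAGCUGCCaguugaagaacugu
mmu-miR-410-3p (Mirg): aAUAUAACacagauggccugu
3110039I08Rik is Mir100hg under its RefSeq name, and its miR-100-5p shares the seed of miR-99a-5p in Mir99ahg. Both hosts also hold miR-125b-5p, which is not printed here. In all, 5 of the 15 hosts share a seed with another of the 222 genes. The libraries measured the host transcripts, and mature microRNAs of this length were not measured.

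Hosts of snoRNAs are known for start sites led by a C and a run of pyrimidines, the 5′ terminal oligopyrimidine motif. The starts of 6 hosts that hold such a run are printed from 20 bases before the RefSeq start to 30 bases from it (GRCm38.p6), because the group these genes form was among those that were higher at 48 h. Capitals mark a run that begins with C, holds at least 5 bases of C or T and begins within 5 bases of the start.
Gas5, chr1:161035146-161035195, plus strand: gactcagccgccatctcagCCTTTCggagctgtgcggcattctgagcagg
Snhg12, chr4:132308658-132308707, plus strand: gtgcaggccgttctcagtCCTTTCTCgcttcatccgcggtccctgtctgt
Snhg8, chr3:123508307-123508356, minus strand: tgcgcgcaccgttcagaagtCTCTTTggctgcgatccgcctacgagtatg
Snhg18, chr15:32244633-32244682, minus strand: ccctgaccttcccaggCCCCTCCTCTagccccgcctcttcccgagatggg
2410006H16Rik, chr11:62602857-62602906, plus strand: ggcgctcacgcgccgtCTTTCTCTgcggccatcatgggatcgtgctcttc
2700038G22Rik, chr5:23850577-23850626, plus strand: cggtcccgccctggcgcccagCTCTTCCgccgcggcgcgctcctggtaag
Such a run was found in 7 of the 18 snoRNA hosts with a RefSeq start, which is 38.9%. It was found in 38 of the 125 long noncoding RNAs with a start, 30.4%, and in 5718 of 27025 genes of all kinds, 21.2%. A match of letters is a description of the window and not a measured start.

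The 222 genes took a small share of the reads. The share lay between 0.722% and 1.01% over the 45 libraries, with a median of 0.873%. In the controls it averaged 0.776% ± 0.0306 at 3 h, 0.885% ± 0.0346 at 24 h and 0.843% ± 0.0779 at 48 h (SD, n = 5 each). With 50 µM BPS the share averaged 0.790% ± 0.0358 at 3 h, 0.935% ± 0.0405 at 24 h and 0.899% ± 0.0434 at 48 h (SD, n = 5 each). No test was made on these shares, since the level of these genes chose them.

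Levels were uneven. The median of the 222 means was 10.5 CPM, the range 5.01 to 962 CPM, and 104 genes lay below 10 CPM while 13 reached 100 CPM. Malat1 (chr19:5795690-5802672, minus strand, mm10 as in the tables) had the highest mean, 962 CPM, and Rian (chr12:109603940-109661716, plus strand) had 905 CPM. Together these 2 genes held 21.9% of the reads of the list, and the top 10 held 51.4%. After them came 3110039I08Rik with 467 CPM, 2900097C17Rik with 443 CPM and Dnm3os with 397 CPM. 2900097C17Rik is Norad in RefSeq, an RNA that binds Pumilio proteins. Gm26917 followed with 278 CPM, 1700020I14Rik with 255 CPM, the RNA Tug1 with 236 CPM and Cct6a with 233 CPM. Gas5 had 199 CPM, 6330403K07Rik 188 CPM and C130021I20Rik 172 CPM.

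Set on length the order differed, since transcripts of unequal length collect unequal numbers of reads. Gm10076 stood highest at 347.6 CPM per kb, followed by Malat1 at 138 CPM per kb, 2410006H16Rik at 134 CPM per kb, 6330403K07Rik at 126 CPM per kb and 2900097C17Rik at 90.1 CPM per kb. The gene length in the tables had a median of 3100 bases and ran from 384 to 93092 bases. RefSeq lists Gm10076 as a pseudogene, so its reads may come from a near-identical gene.

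The type in the tables is not the only view of these genes. RefSeq held 155 of the 222 by symbol or synonym, and listed 132 as lncRNA, 1 as antisense RNA, 18 as protein-coding and 4 as some form of pseudogene. Among those named here, RefSeq lists Zfp469 and Ifi30 as protein-coding and Ptprv as a transcribed pseudogene. Of the 222 genes 101 overlap a protein-coding gene, 93 of them on the opposite strand. Whether the library kit kept strand is not given, so the reads of genes that overlap cannot be told apart and their values are uncertain. A further description is that 49 genes start within 1 kb upstream of an opposite coding start, 20 hold a snoRNA and 18 hold a microRNA by the annotation.

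The limit of 5 CPM left close neighbours on each side. Just inside were Gm8066 at 5.01 CPM, 9130221H12Rik at 5.02 CPM and D430040D24Rik at 5.04 CPM. Just outside were 2810468N07Rik and A530017D24Rik, both at 4.97 CPM, and 9330104G04Rik at 4.96 CPM. The coefficient of variation between libraries of a group had a median of 12.5% over the 222 genes, against 7.67% over 11641 protein-coding genes of at least 5 CPM. The ratio of the highest to the lowest of the 9 group means had a median of 1.49 over the list, against 1.31 over those protein-coding genes. For 36 long noncoding RNAs this ratio was at least 2, and for 6 it was at least 4.

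Culture time moved far more of these RNAs than BPS did. Within the DMSO controls, 98 of the 222 genes were higher and 20 lower at 24 h than at 3 h by the quasi-likelihood test of edgeR with Benjamini-Hochberg adjustment over all genes tested, at an adjusted p below 0.05. The background of that comparison was 40.2% of 16536 genes called, 20.0% higher and 20.1% lower, so the share of the list that was higher, 44.1%, stood above it and the share that was lower, 9.01%, below it. The median log2 difference was 0.25 over the list and -0.01 over all genes tested, and 164 of the 222 differences lay above 0. Among protein-coding genes of at least 5 CPM, 23.0% were higher and 22.9% lower, with a median of -0.01. These coding genes met the same limit and were not matched to the list in level. The mean that chose the list spans all times, so a gene low at 3 h could enter through its later groups. AI838599, for one, had group means of 1.61 CPM with 10 µM BPS at 3 h and 15.2 CPM in DMSO at 48 h. Such a choice favours genes that are higher later, and its part in these shares was not tested.

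Between 24 h and 48 h the direction turned for part of the list. Here 12 genes were higher and 22 lower at 48 h, 5.41% and 9.91% of the list, against a background of 16.0% of all genes, 9.44% higher and 6.55% lower. The median log2 difference was -0.10 for the list and -0.01 over all genes. With all 45 libraries in 1 fit this comparison called 18 higher and 36 lower, 54 in place of 34. The replicate block called 52, though same-numbered libraries paired only in part here. From 3 h to 48 h, 77 genes were higher and 35 lower at 48 h, against a background of 49.3%, 24.5% higher and 24.8% lower, and the list's median was 0.18. The 5 libraries of the later time did not overlap those of the earlier time for 84 genes at 24 h over 3 h, against 27.6% of all genes. For 48 h over 24 h this held for 29 genes against 12.8% of all genes, and for 48 h over 3 h for 71 genes against 36.0%. The 3 comparisons share control libraries, so their calls are not independent of each other.

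**Figure D1:**
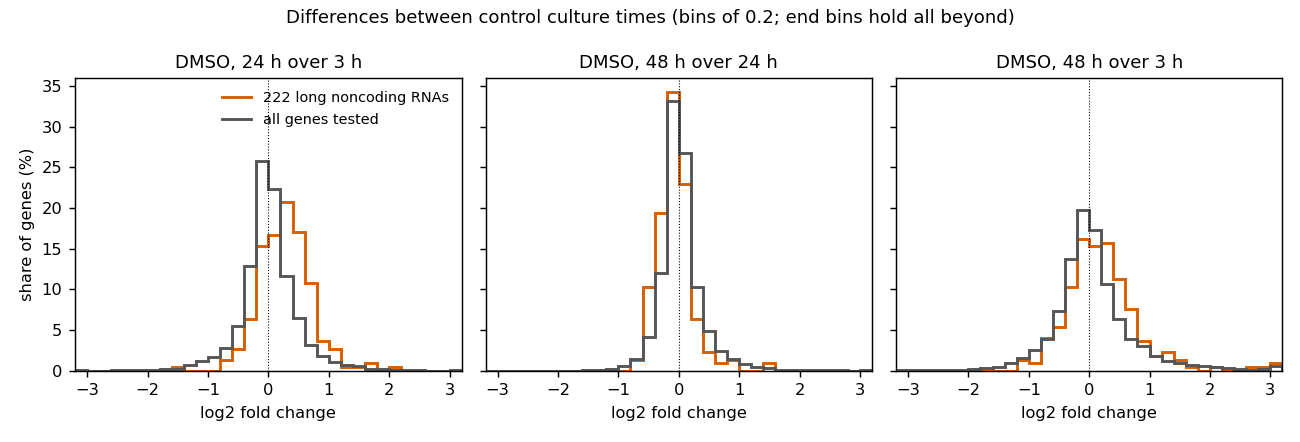
Share of genes (%, vertical) by log2 fold change between control culture times (horizontal, bins of 0.2), for the 222 long noncoding RNAs and for all genes tested. At 24 h over 3 h the list lies to the right, with a median of 0.25 against -0.01, and at 48 h over 24 h its median is -0.10.

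Sorted by both steps, 12 genes were higher at 24 h than at 3 h and higher again at 48 h than at 24 h, 14 were higher and then lower, 3 were lower in both steps, and 0 were lower and then higher. A further 72 were higher at 24 h with no call in the second step, 17 were lower at 24 h with none, and 5 were lower in the second step alone. For 74 of the 222 genes no control comparison passed the test. Over all 9 groups the highest group mean fell at 3 h for 45 genes, at 24 h for 96 and at 48 h for 81.

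Among the RNAs that were higher at each step was Ptprv (chr1:135108497-135132594, minus strand), known in mouse as a tyrosine phosphatase gene of osteoblasts and a target of p53. It stood at 9.74, 10.8, 11.3, 12.4 and 13.1 CPM in the 3 h controls, at 26.4, 30.5, 31.01, 31.5 and 37.8 CPM at 24 h and at 88.6, 90.5, 91.9, 95.2 and 95.3 CPM at 48 h. Each time lies clear of the time before. The log2 difference was 1.44 at 24 h over 3 h (SE 0.10, edgeR adjusted p = 3.39e-10) and 1.55 at 48 h over 24 h (SE 0.08, adjusted p = 7.92e-09).

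AI838599 (chr4:3242055-3258092, plus strand) was also higher at each step. It had 1.04 to 2.54 CPM with a median of 1.73 CPM at 3 h, 6.96 to 9.43 CPM with a median of 7.92 CPM at 24 h and 14.3 to 16.4 CPM with a median of 15.2 CPM at 48 h. It was higher by 3.09 on the log2 scale at 48 h over 3 h (SE 0.16, edgeR adjusted p = 1.96e-10). Gm15675 (chr1:130429781-130437191, minus strand) was higher at 24 h by 1.75 (SE 0.23) and at 48 h over 24 h by 0.92 (SE 0.13) on the log2 scale. Zfp469, a zinc finger gene that RefSeq lists as protein-coding, averaged 11.3 ± 1.93 CPM at 3 h, 24.2 ± 1.10 CPM at 24 h and 38.1 ± 5.17 CPM at 48 h (SD, n = 5 each).

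Of 4 nuclear RNAs all were higher at 24 h than at 3 h, against 20.0% of all genes, although the call of Malat1 was not stable. At 48 h over 24 h 1 was higher and 1 lower, against 9.44% and 6.55% of all genes. Neat1 (chr19:5824708-5845478, minus strand) had 12.3, 14.9, 17.4, 18.4 and 19.7 CPM at 3 h, 28.9, 31.2, 34.2, 40.7 and 45.5 CPM at 24 h and 59.8, 63.0, 66.7, 79.8 and 81.0 CPM at 48 h, with no overlap between times. On the log2 scale it differed by 1.11 at 24 h over 3 h (SE 0.15, edgeR adjusted p = 4.04e-05) and 0.95 at 48 h over 24 h (SE 0.12, adjusted p = 7.54e-05).

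Malat1, the neighbour of Neat1 on chromosome 19, was less clear. It had 647, 649, 687, 746 and 858 CPM at 3 h, 692, 965, 997, 1088 and 1093 CPM at 24 h and 571, 701, 1155, 1192 and 1407 CPM at 48 h. The 48 h controls cover the whole range of the earlier times, 2 of the 5 low and 3 high. The difference at 24 h over 3 h was 0.41 on the log2 scale (SE 0.13, edgeR adjusted p = 0.0313), and it did not pass with no filter on low counts (adjusted p = 0.0702), with all 45 libraries in the fit (0.134) or with any 1 of 7 of the 10 libraries left out (0.0535 to 0.0845). The difference at 48 h over 3 h was 0.48 (SE 0.23, adjusted p = 0.119) and did not pass. Miat, a further nuclear RNA, was higher at 24 h by 0.68 (SE 0.07) and lower at 48 h than at 24 h by 0.49 on the log2 scale: it averaged 78.9 ± 11.6 CPM at 48 h and 110.7 ± 11.5 CPM at 24 h (SD, n = 5 each).

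The RNAs of imprinted clusters were higher at 24 h than at 3 h in 5 of 6 cases, and 0 were lower, against 20.0% of all genes higher and 44.1% of the list. Groups by role share genes, so their counts are not separate results. Rian counts as snoRNA host, microRNA host and imprinted RNA, and Mirg as microRNA host and imprinted RNA. Snhg14 is both snoRNA host and imprinted, and Kcnq1ot1 both imprinted and nuclear. Rian holds 13 snoRNAs and 4 microRNAs by the annotation. It had 439.7, 516, 529, 551 and 599 CPM at 3 h, 882, 924, 955, 998 and 1029.9 CPM at 24 h and 898, 1143, 1171, 1198 and 1204 CPM at 48 h. All 24 h libraries lie above all 3 h libraries, while 24 h and 48 h overlap through 1 low library at 48 h. The log2 difference was 0.84 at 24 h over 3 h (SE 0.07, edgeR adjusted p = 1.23e-08) and 0.23 at 48 h over 24 h (SE 0.08, adjusted p = 0.0818).

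Mirg (chr12:109729764-109749460, plus strand, 14 microRNAs inside, miR-410 among them) lies in the same cluster as Rian. It had 35.5 to 52.8 CPM with a median of 45.5 CPM at 3 h, 88.8 to 106 CPM with a median of 93.3 CPM at 24 h and 92.9 to 138 CPM with a median of 132 CPM at 48 h. On the log2 scale it differed by 1.06 at 24 h over 3 h (SE 0.09, adjusted p = 4.58e-08) and 0.38 at 48 h over 24 h (SE 0.09, adjusted p = 0.0102, both edgeR). One of the 48 h libraries lies within the range of the 24 h libraries.

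Airn (chr17:12741311-12860136, plus strand) overlaps Igf2r on the opposite strand. It had 16.7, 19.4, 20.4, 20.7 and 21.5 CPM at 3 h, 35.4, 40.2, 41.9, 44.7 and 51.2 CPM at 24 h and 36.6, 44.7, 45.3, 46.9 and 57.2 CPM at 48 h. It was higher by 1.10 on the log2 scale at 24 h over 3 h (SE 0.09, edgeR adjusted p = 7.40e-09). Igf2r, the receptor gene that Airn silences in cis on the paternal allele in mouse, was higher as well, by 0.46 at 24 h over 3 h, and the reads of this overlapping pair cannot be told apart by strand. Kcnq1ot1 (chr7:143203458-143296549, minus strand) was higher at 24 h by 0.62 (SE 0.15, adjusted p = 0.00608) and Igf2os by 0.45 (SE 0.06, adjusted p = 7.32e-06). Snhg14, which runs over 208 snoRNAs by the annotation, was the exception: it was lower at 48 h than at 3 h with an adjusted p of 0.0499.

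**Figure D2:**
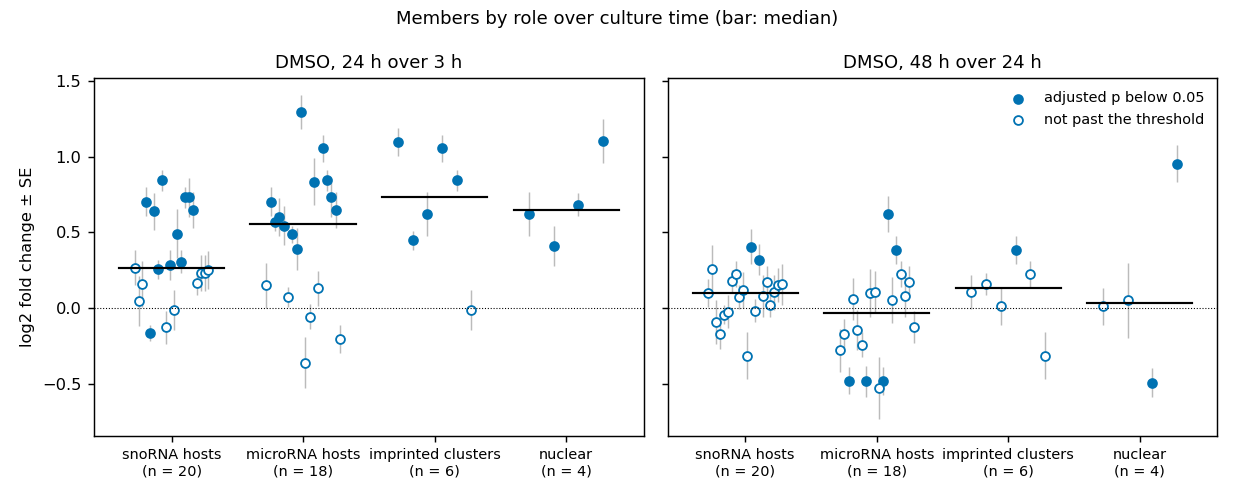
Log2 fold change ± SE (vertical) of each gene between control culture times, by role (horizontal), with filled points for an adjusted p below 0.05 and a bar at the median. At 24 h over 3 h the medians lie above 0 in the 4 groups, and 12 of 18 genes with a microRNA inside were higher. Some genes, such as Rian, stand in several groups.

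Among the 18 genes with a microRNA inside, 12 were higher and 0 lower at 24 h than at 3 h, against 20.0% of all genes higher and 20.1% lower. At 48 h over 24 h 2 were higher and 3 lower, against 9.44% and 6.55% of all genes. Between 48 h and 3 h 10 were higher and 3 lower at 48 h, against 24.5% and 24.8%. The medians of their log2 differences were 0.56, -0.03 and 0.46.

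Dnm3os (chr1:162217623-162225550, plus strand) is the host of miR-199a and miR-214 whose loss impairs skeletal growth in mouse. It had 318, 331, 333, 351 and 358 CPM at 3 h, 436, 462, 480.4, 486 and 536 CPM at 24 h and 254, 331, 345, 387 and 404 CPM at 48 h. The 24 h libraries lie above all others, and 3 h and 48 h overlap. The log2 difference was 0.49 at 24 h over 3 h (SE 0.06, edgeR adjusted p = 4.01e-07) and -0.48 at 48 h over 24 h (SE 0.10, adjusted p = 0.0039).

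3110039I08Rik, the host of miR-100 (chr9:41327077-41716994, plus strand), had a like course. It had 351, 359, 371, 382 and 405 CPM at 3 h, 528, 531, 533, 556 and 657 CPM at 24 h and 336, 379, 421, 425 and 459.8 CPM at 48 h. Again the 24 h libraries stand above all others. In log2 units the difference was 0.57 at 24 h over 3 h (SE 0.06, edgeR adjusted p = 2.27e-07) and -0.48 at 48 h over 24 h (SE 0.09, adjusted p = 0.0013). Mir99ahg, which holds a microRNA with the seed of miR-100, passed no test. 6720427I07Rik, which holds let-7d, was higher at 24 h than at 3 h, with 11.4 ± 1.43 CPM at 24 h and 7.45 ± 1.09 CPM at 3 h (SD, n = 5 each; log2 difference 0.60, edgeR adjusted p = 0.00054).

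Hosts of other microRNAs differed from these. Gm28653 (chr1:20669882-20684298, plus strand) holds miR-206 and miR-133b, which are microRNAs of skeletal muscle. It had 8.27 to 10.98 CPM with a median of 10.4 CPM at 3 h, 19.7 to 30.4 CPM with a median of 24.4 CPM at 24 h and 20.6 to 33.5 CPM with a median of 26.0 CPM at 48 h. On the log2 scale it differed by 1.30 at 24 h over 3 h (SE 0.11, edgeR adjusted p = 8.49e-09) and 0.11 at 48 h over 24 h (adjusted p = 0.664). The skeletal muscle markers moved with it: 6 of 6 were higher at 24 h than at 3 h, against 20.0% of all genes. Their summed level was 1898 to 2917 CPM at 24 h against 1084 to 1209 CPM at 3 h. The part of this shift in the result was not tested.

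Mir17hg (chr14:115042879-115046727, plus strand), host of the miR-17 cluster with its roles in proliferation and in skeletal growth, was late in its change. It had 20.4, 24.0, 24.4, 24.4 and 26.2 CPM at 3 h, 20.95, 21.1, 24.5, 24.6 and 24.9 CPM at 24 h and 14.2, 16.1, 16.9, 17.6 and 18.6 CPM at 48 h. All 48 h libraries lie below all earlier ones. The log2 difference was -0.48 at 48 h over 24 h (SE 0.09, edgeR adjusted p = 0.00199) and -0.06 at 24 h over 3 h (adjusted p = 0.625). Mir22hg was higher in both steps, with 3.198 to 5.502 CPM at 3 h, 6.83 to 9.31 CPM at 24 h and 11.1 to 14.1 CPM at 48 h. For Dleu2, the host of miR-15a and miR-16, no control comparison passed the test, with log2 differences of 0.07, -0.24 and -0.16.

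Of the 20 genes with a snoRNA inside, 10 were higher and 1 lower at 24 h over 3 h, against 20.0% of all genes higher and 20.1% lower. At 48 h over 24 h 2 were higher and 0 lower, a share of higher genes near the 9.44% of all genes. Between 48 h and 3 h 15 were higher and 2 lower at 48 h, against 24.5% and 24.8% of all genes. The 3 comparisons gave medians of 0.26, 0.10 and 0.41 on the log2 scale. Gas5 (chr1:161034422-161038539, plus strand, 10 snoRNAs inside) had 137, 163, 163, 167 and 184 CPM at 3 h, 189.7, 189.7, 192, 204 and 209 CPM at 24 h and 199, 206, 212, 235 and 266 CPM at 48 h. The 24 h libraries lie just above the 3 h libraries and overlap those of 48 h. On the log2 scale it differed by 0.26 at 24 h over 3 h (SE 0.06, edgeR adjusted p = 0.00256) and 0.45 at 48 h over 3 h (SE 0.09, adjusted p = 0.000353).

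Snhg18 (chr15:32240565-32244662, minus strand) had 17.8 to 19.9 CPM at 3 h with a median of 18.4 CPM, 30.8 to 31.9 CPM at 24 h with a median of 31.6 CPM and 32.6 to 49.4 CPM at 48 h with a median of 41.1 CPM. The times do not overlap. In log2 units the difference was 0.73 at 24 h over 3 h (SE 0.07, edgeR adjusted p = 2.37e-08) and 0.32 at 48 h over 24 h (SE 0.10, adjusted p = 0.0398), and the second did not pass without any 1 of the 24 h libraries or without 48 h replicate 1, 2 or 4 (adjusted p = 0.0689 to 0.0968). Snhg15 was higher by 0.49 at 24 h over 3 h and by 0.41 at 48 h over 24 h, Snhg20 by 0.73 at 24 h over 3 h, and Snhg1 passed no test.

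Messenger RNAs of proteins that act on these RNAs were mostly lower with time where they were called. The proteins themselves were not measured. Of 16 genes for proteins of the snoRNA particles 0 were higher and 6 lower at 24 h than at 3 h. In that comparison 20.0% of all genes were higher and 20.1% lower. At 48 h over 3 h 1 of the 16 was higher and 7 were lower. Of 16 genes for factors of nonsense-mediated decay 0 were higher and 7 lower at 48 h over 3 h. The log2 difference was -0.44 for Smg6, which encodes the endonuclease of this decay.

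Of 13 messenger RNAs of paraspeckle proteins 10 were lower and 0 higher at 48 h over 3 h, while Neat1 was higher. Sfpq, which encodes a core protein of paraspeckles, averaged 394 ± 46.5 CPM at 48 h and 574 ± 39.7 CPM at 3 h (SD, n = 5 each). Its log2 difference was -0.55, and that of Nono was -0.42. Of 9 tested genes for factors that process or load microRNAs 5 were lower and 0 higher at 48 h over 3 h. Among these the difference was -0.46 for Drosha, which cuts the primary transcript, and -0.53 for Dicer1, which cuts the hairpin. It was -1.53 for Lin28b, which blocks the processing of let-7. Lin28b was low, at 1.38 ± 0.327 CPM at 48 h and 4.00 ± 0.575 CPM at 3 h (SD, n = 5 each). With 24.8% of all genes lower and 24.5% higher in that comparison, these counts are a description of the lists.

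**Figure D3:**
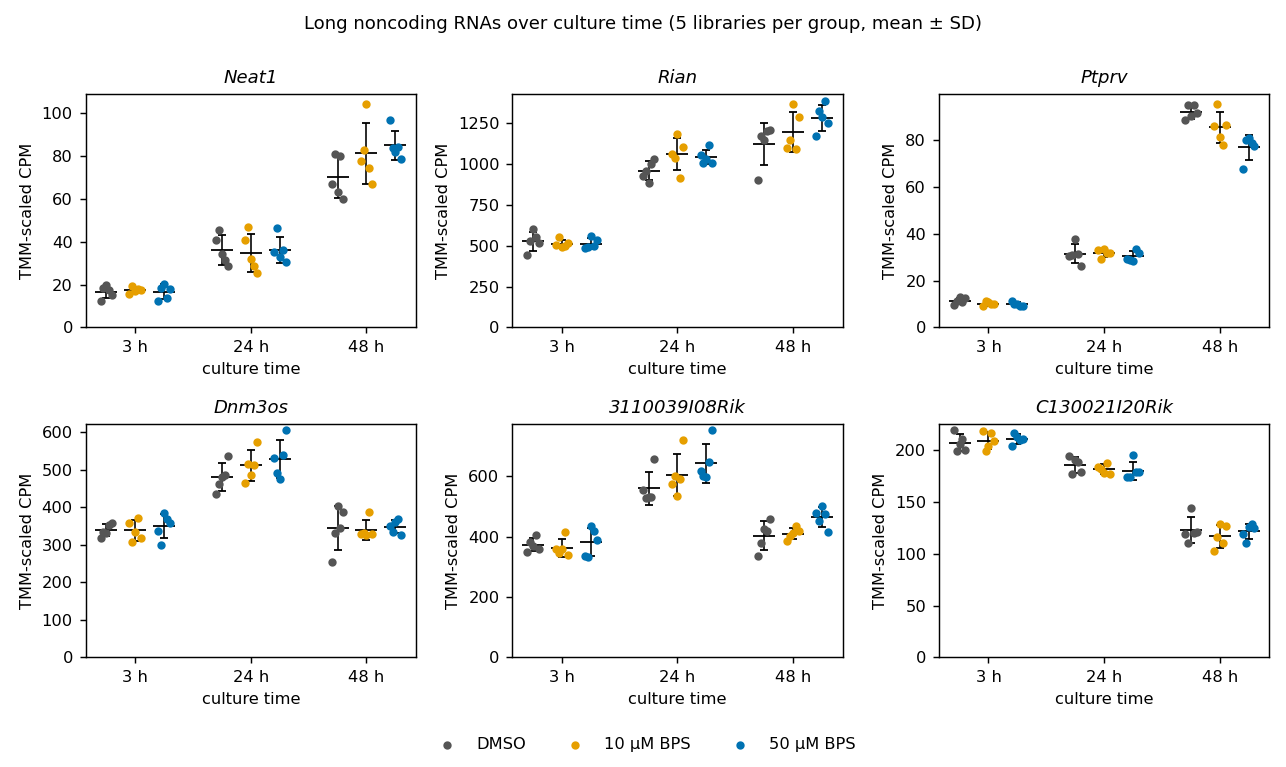
TMM-scaled CPM (vertical) of 6 long noncoding RNAs by culture time (horizontal) and BPS dose, with each point a library and the bar and whiskers the mean ± SD of 5. Neat1 and Ptprv are higher at each step of the DMSO controls, Dnm3os and 3110039I08Rik peak at 24 h, and C130021I20Rik is lowest at 48 h.

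Genes that were lower with time included some RNAs beside limb transcription factors, while others beside such factors were higher. Of 3 listed neighbours of Hox and limb factors 2 were higher and 0 lower at 24 h over 3 h, against 20.0% and 20.1% of all genes. At 48 h over 24 h 0 were higher and 1 lower, and at 48 h over 3 h 0 were called. Gm43050, head to head with Tbx5, was higher by 0.57 on the log2 scale at 24 h over 3 h (edgeR adjusted p = 7.40e-05). C130021I20Rik (chr2:33641193-33646354, plus strand) starts 682 bases from Lmx1b, the factor of dorsal limb identity, and is transcribed away from it. It had 199.9, 201, 206, 211 and 219.9 CPM at 3 h, 177, 179, 189, 191 and 195 CPM at 24 h and 111, 119.6, 120.0, 121 and 144 CPM at 48 h, with no overlap between times. Its log2 difference was -0.17 at 24 h over 3 h (SE 0.05, edgeR adjusted p = 0.00532) and -0.60 at 48 h over 24 h (SE 0.07, adjusted p = 1.90e-05). Lmx1b differed by -0.63 at 48 h over 24 h (adjusted p = 6.04e-06) and by -0.10 at 24 h over 3 h, which did not pass (adjusted p = 0.0976).

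2700069I18Rik (chr3:5177586-5220841, minus strand) overlaps Zfhx4, a zinc finger homeobox gene. It had 18.7 to 22.7 CPM at 3 h with a median of 19.3 CPM, 12.5 to 15.1 CPM at 24 h with a median of 12.9 CPM and 9.25 to 11.6 CPM at 48 h with a median of 9.60 CPM. In log2 units the difference was -1.02 at 48 h over 3 h (SE 0.09, edgeR adjusted p = 1.30e-07), and that of Zfhx4 was -0.71. Tbx3os1 (chr5:119570130-119671365, minus strand), beside the limb factor Tbx3, was higher at 24 h by 0.25 (adjusted p = 0.0431) and differed by -0.50 at 48 h over 24 h (adjusted p = 0.00138). Tbx3 itself differed by -0.98 in the first step and by -0.47 in the second. Hoxa11os, antisense to a Hox gene of the limb's middle segment, passed no test (log2 difference 0.26 at 24 h over 3 h, adjusted p = 0.128).

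Gm26917 (chr17:39843013-39846341, plus strand) had the largest fall from 3 h to 24 h among the genes of the list that were called. It had 364, 376, 451, 471 and 631 CPM at 3 h, 153, 162, 167, 169.6 and 217 CPM at 24 h and 161, 186, 191, 210.1 and 277 CPM at 48 h, so the 3 h libraries stand apart. On the log2 scale it differed by -1.42 at 24 h over 3 h (SE 0.17, edgeR adjusted p = 0.00016). The gene lies 12 bases from Rn18s-rs5, a pseudogene in RefSeq that is named for its likeness to ribosomal RNA, a family of many near-identical copies. The values of Gm26917 are therefore uncertain.

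Further falls were seen in genes of lower level. At 24 h over 3 h the log2 difference was -0.65 for Eldr, -0.62 for 5930412G12Rik, which is Fzd10os in RefSeq, -0.59 for 1700052K11Rik and -0.53 for Lockd, a locus beside Cdkn1b. At 48 h over 24 h A330074K22Rik differed by -0.74 (SE 0.23) with an edgeR adjusted p of 0.0337, 4833422C13Rik by -0.63 and BC006965 by -0.58. A330074K22Rik averaged 3.15 ± 1.12 CPM at 48 h and 5.29 ± 1.02 CPM at 24 h (SD, n = 5 each), and its call was lost without any 1 of 5 of the 10 libraries.

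Coding neighbours did not always move with these RNAs. Gm13111 (chr4:154637576-154644724, plus strand; Prdm16os in RefSeq) starts 703 bases from Prdm16, a transcriptional regulator, on the opposite strand. Gm13111 averaged 35.01 ± 2.81 CPM at 3 h, 55.5 ± 4.81 CPM at 24 h and 44.1 ± 2.71 CPM at 48 h (SD, n = 5 each). Prdm16 averaged 165.6 ± 16.4 CPM at 3 h, 141 ± 8.90 CPM at 24 h and 81.7 ± 13.9 CPM at 48 h. At 48 h over 3 h the log2 difference was 0.32 for Gm13111 (edgeR adjusted p = 0.00135) and -1.03 for Prdm16 (adjusted p = 3.37e-07). Dnm3, which Dnm3os overlaps, differed by -0.65 at 24 h over 3 h, where Dnm3os was higher.

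Over all 33 pairs that start head to head with no overlap, both genes were called in 10 pairs at 24 h over 3 h, with the same direction in 7. For 48 h over 24 h it was 6 of 6 pairs, and for 48 h over 3 h 8 of 13 pairs. Among overlapping pairs with values, 92 to 94 in number, both were called in 24 pairs at 24 h over 3 h, 14 of them in the same direction. Here 48 h over 24 h gave 6 of 6 pairs, and 48 h over 3 h gave 19 of 24 pairs. Where several coding genes overlapped, the first by name was taken as the partner. Spearman's rho between the log2 differences of the 2 genes of a pair was 0.31 to 0.44 head to head and 0.33 to 0.40 for overlapping pairs. These correlations run across genes that share libraries, and for overlapping pairs also reads.

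The cell types of the cultures shifted with time beside these results. Of 8 mesenchyme markers 5 were lower at 24 h and 8 at 48 h than at 3 h (all genes 20.1% and 24.8%). The 5 osteoblast markers were higher at both, with a summed level of 1571 to 1779 CPM at 3 h, 2551 to 3133 CPM at 24 h and 6777 to 8578 CPM at 48 h. Of 6 cartilage markers 5 were higher at 24 h than at 3 h, against 20.0% of all genes. In that comparison 4 of 6 red cell and 4 of 6 epidermal markers were lower. Of 6 glial markers 3 were lower and 1 higher. Of 6 macrophage markers 4 were higher and 1 lower, with a summed level of 95.8 to 131 CPM at 24 h against 52.0 to 56.3 CPM at 3 h, and 6 of 6 endothelial markers were lower. In bulk RNA, a change in the number of cells of a type and a change in RNA per cell cannot be told apart, and the part of these shifts in the values of the long noncoding RNAs was not tested.

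With 50 µM BPS few of these RNAs passed the test. At 3 h 1 of 221 tested genes was higher than in DMSO and 0 were lower, against a background of 0.0538% of 16722 genes, 0.0299% higher. At 24 h 0 of 222 were called, against a background of 0.375%, while 32 had an unadjusted p below 0.05. At 48 h 1 was higher and 1 lower, 0.901% of the list, against a background of 1.00%, 0.480% higher and 0.522% lower. The median log2 difference of the list was 0.04, 0.02 and 0.06 at the 3 times, and 140 of 221, 130 of 222 and 143 of 222 differences lay above 0. DESeq2 called 2, 2 and 11 genes. No share over all genes is given for the unadjusted p-values, the directions or DESeq2, so these counts are a description.

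With the replicate number as a block, which the libraries of 3 h and 24 h allow because same-numbered libraries deviated together, the counts were larger. At 3 h 3 genes were higher and 1 lower, against 1.53% of all genes called, 0.801% higher and 0.730% lower. At 24 h 11 were higher and 0 lower, 4.95% of the list, against 5.75% of all genes, 3.76% higher and 1.99% lower. The list's share at 24 h is thus near the background.

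Gm13111, the RNA beside Prdm16, was the gene called at 3 h. It had 44.0, 44.1, 45.01, 45.5 and 46.1 CPM with 50 µM BPS against 31.2, 33.7, 34.7, 37.6 and 37.8 CPM in DMSO, so the groups lie apart. The log2 difference was 0.36 (SE 0.06, edgeR adjusted p = 0.025; with the block 0.00055), and it did not pass without replicate 1, 4 or 5 of 50 µM BPS or 2, 4 or 5 of DMSO (adjusted p = 0.0746 to 0.114). At 24 h it had 52.8, 56.4, 63.3, 69.9 and 76.6 CPM with 50 µM BPS against 50.0, 52.7, 54.7, 57.9 and 62.4 CPM in DMSO, which overlap (with the block the log2 difference was 0.20, adjusted p = 0.0239).

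At 48 h Gm13111 had 49.7, 50.7, 52.6, 52.95 and 56.8 CPM with 50 µM BPS against 42.0, 42.3, 43.4, 44.2 and 48.7 CPM in DMSO. These groups again lie apart, but the difference of 0.25 on the log2 scale did not pass (edgeR adjusted p = 0.0741). Prdm16 differed by 0.11, 0.17 and 0.20 at the 3 times and was not called. With 10 µM BPS Gm13111 ranged from 33.2 to 42.4 CPM at 3 h, which overlaps DMSO.

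4933421O10Rik (chr4:33027142-33031323, minus strand) starts head to head with Ube2j1, an enzyme that attaches ubiquitin to proteins in degradation from the endoplasmic reticulum. At 3 h it had 7.55, 8.39, 9.07, 10.5 and 11.4 CPM with 50 µM BPS against 6.17, 6.74, 6.95, 7.10 and 7.45 CPM in DMSO, and the groups do not overlap. On the log2 scale it differed by 0.45 (edgeR adjusted p = 0.288), and with the replicate block its adjusted p was 0.0309. At 24 h it had 14.7, 17.8, 18.1, 20.6 and 20.8 CPM with 50 µM BPS against 11.7, 11.9, 14.1, 14.7 and 15.6 CPM in DMSO, a log2 difference of 0.45 (adjusted p = 0.0788; with the block 0.00525), and 1 library of 50 µM lies within the DMSO range. At 48 h it had 18.6, 19.4, 22.03, 22.1 and 22.8 CPM with 50 µM BPS against 13.4, 15.1, 17.3, 17.4 and 18.8 CPM in DMSO, which overlap by 1 library, a log2 difference of 0.35 (adjusted p = 0.126).

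Ube2j1 was not called with 50 µM BPS, with log2 differences of -0.08, -0.07 and 0.06. In RefSeq (GRCm38.p6) the starts of the 2 genes are 57 bases apart. The stretch from 250 bases before the start of 4933421O10Rik to 50 bases from it is shown because it holds the starts of both genes, and capitals mark the letters TGACGTGG.
4933421O10Rik, chr4:33031274-33031573, minus strand: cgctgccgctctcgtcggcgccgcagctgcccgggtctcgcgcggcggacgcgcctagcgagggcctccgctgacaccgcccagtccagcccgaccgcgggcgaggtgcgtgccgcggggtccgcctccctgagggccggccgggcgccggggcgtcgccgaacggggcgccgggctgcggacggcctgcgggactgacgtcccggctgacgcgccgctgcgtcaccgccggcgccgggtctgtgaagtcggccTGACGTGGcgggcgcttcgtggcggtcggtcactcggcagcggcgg
TGACGTGG, searched on both strands and chosen after the gene's values were seen, lies at bases 5 to 12 of the transcript. It occurs in 222 of 32851 RefSeq entries of this window, 0.676%, and in those of 5 of the long noncoding RNAs with an entry. TGACGTCA occurs in 588 entries, 1.79%. The match describes letters in the window and no binding was measured.

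**Figure D4:**
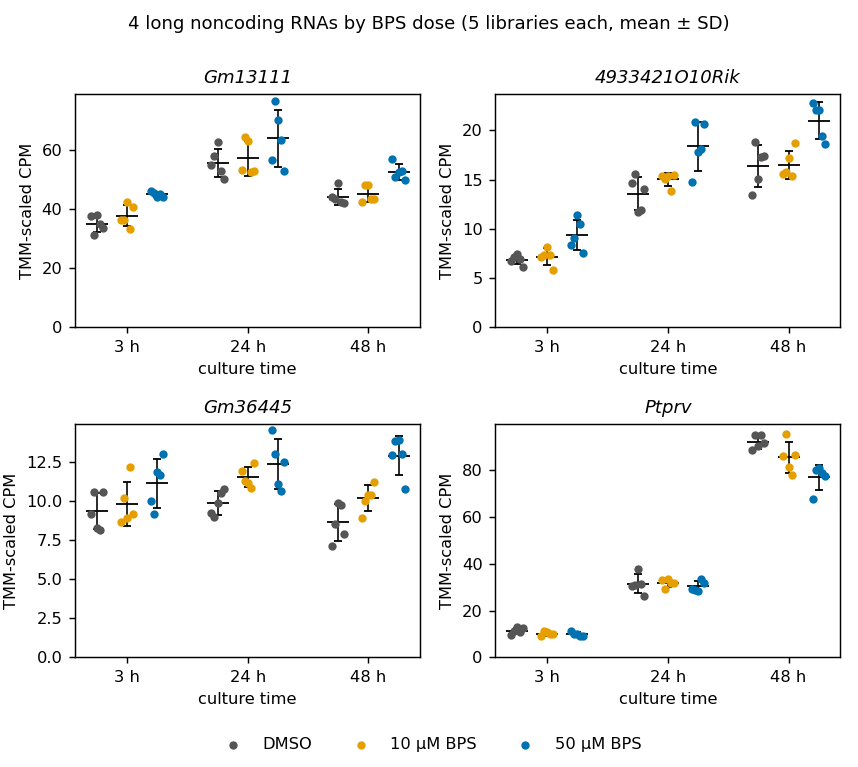
TMM-scaled CPM (vertical) of 4 long noncoding RNAs by culture time (horizontal) and dose, with each point a library and the bar and whiskers the mean ± SD of 5. At 3 h the 5 libraries of 50 µM BPS lie above those of DMSO for Gm13111 and 4933421O10Rik, and at 48 h they lie above for Gm36445 and below for Ptprv.

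Gm36445 and Ptprv were the genes called at 48 h. Gm36445 (chr13:65241753-65250154, plus strand) is a transcript of no known role that lies 9385 bases from the nearest coding gene in the tables. It had 10.8, 13.0, 13.0, 13.9 and 13.96 CPM with 50 µM BPS against 7.16, 7.91, 8.56, 9.78 and 9.90 CPM in DMSO. The groups lie apart, with a log2 difference of 0.57 (SE 0.11, edgeR adjusted p = 0.0245). The call was lost without replicate 1, 2, 3 or 4 of 50 µM BPS or replicate 2 of DMSO (adjusted p = 0.0708 to 0.0791).

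Ptprv, which was higher at each step of control time, was lower with 50 µM BPS at 48 h. It had 67.9, 77.5, 79.0, 80.3 and 81.1 CPM with 50 µM BPS against 88.6, 90.5, 91.9, 95.2 and 95.3 CPM in DMSO, a log2 difference of -0.26 (SE 0.06, edgeR adjusted p = 0.0467). The groups lie apart, and the call was lost without any 1 of the 50 µM libraries or without DMSO replicate 2, 4 or 5 (adjusted p = 0.0600 to 0.141). At 24 h the groups overlapped, at 28.5 to 33.7 CPM with 50 µM BPS and 26.4 to 37.8 CPM in DMSO. None of 5 osteoblast markers was called at 48 h, with a summed level of 6206 to 7424 CPM with 50 µM BPS against 6777 to 8578 CPM in DMSO. Of 6 macrophage markers 3 were lower at 48 h, at a summed 106 to 169 CPM against 157 to 222 CPM. Of 6 endothelial markers 1 was lower, and 0.522% of all genes were lower in that comparison. At 24 h 1 of the 6 macrophage markers was lower, against 0.375% of all genes called in either direction. The part of these shifts in the results was not tested.

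Dleu2, the host of miR-15a and miR-16, came close. It had 65.2, 69.2, 73.4, 75.1 and 77.3 CPM with 50 µM BPS against 51.6, 54.0, 56.3, 63.5 and 64.3 CPM in DMSO at 48 h, which do not overlap, with a log2 difference of 0.31 that did not pass (edgeR adjusted p = 0.0589). At 24 h it was higher with the block (log2 difference 0.23, adjusted p = 0.00501). The other genes called at 24 h with the block included the microRNA host 3110039I08Rik at 0.21 (adjusted p = 0.00085), Dnm3os at 0.14 (0.0275), Rian at 0.13 (0.0488), Miat at 0.17 (0.0153) and 2900097C17Rik at 0.13 (0.0448). Of the 18 genes with a microRNA inside 5 were called in that fit, 27.8%, against 5.75% of all genes and 4.95% of the list.

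Groups that did not overlap give a further description of these sets. At 3 h this held for 4 genes, all higher with 50 µM BPS, against 1.69% of all genes: Gm13111, Gm11613, 4933421O10Rik and Snhg18. At 24 h it held for 1 gene, Gm15675, lower with 50 µM BPS, against 2.82%, and at 48 h for 10 genes, 8 higher and 2 lower, against 3.56%. The shares of the list are near these backgrounds at 3 h and 48 h and below it at 24 h.

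**Figure D5:**
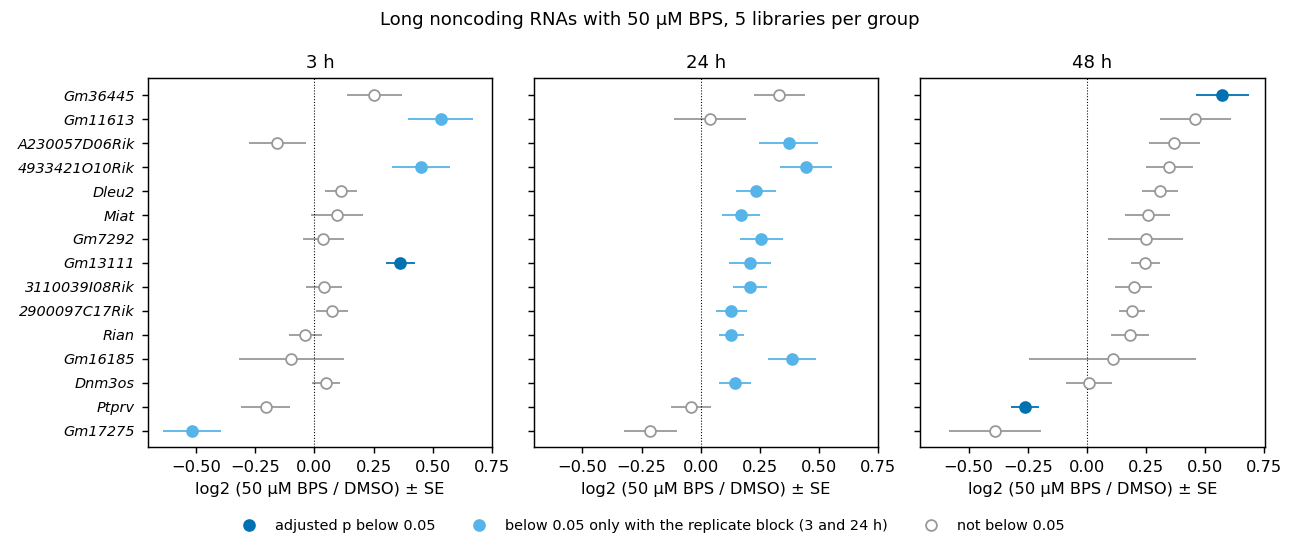
Log2 fold change of 50 µM BPS over DMSO ± SE (horizontal) for the long noncoding RNAs called at any time, or at 3 or 24 h with the replicate block (vertical), in a panel for each culture time. Dark points passed the test (Gm13111 at 3 h, Gm36445 and Ptprv at 48 h), light points passed with the block alone, and open points did not pass.

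By role, the snoRNA hosts, the microRNA hosts, the imprinted RNAs and the nuclear RNAs had 0 calls with 50 µM BPS at any time in the fit without the block. The list of p53 and stress RNAs had 1, Ptprv at 48 h. Of the genes in the protein lists for snoRNA particles, decay, paraspeckles and microRNA processing 0 were called in any comparison with BPS without the block. With 50 µM BPS the fits without the block called 0.0538%, 0.375% and 1.00% of all genes at 3, 24 and 48 h. With 10 µM they called 0% each time. Lists this small would hold few calls at such shares, so these counts are a description of the lists.

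With 10 µM BPS 0 of 221, 0 of 222 and 0 of 222 genes were called at 3, 24 and 48 h by edgeR, against a background of 0% of all genes each time. DESeq2 called 0 as well, and 5, 5 and 2 genes had an unadjusted p below 0.05. The 3 smallest p-values, none of which passed after adjustment, belonged at 3 h to Gm43050 (log2 difference 0.24), Gm17275 (-0.26) and 2310058D17Rik (0.33). At 24 h they belonged to the snoRNA host Snhg17 (-0.12), Gm36445 (0.22) and A230057D06Rik (0.24), and at 48 h to C030037D09Rik (0.37), Gm13781 (-0.33) and Gm36445 (0.24). The groups did not overlap for 2, 2 and 0 genes of the list at the 3 times, against 0.420%, 0.532% and 0.484% of all genes. Gm36445 had 8.95, 10.0, 10.4, 10.4 and 11.3 CPM with 10 µM BPS against 7.16 to 9.90 CPM in DMSO at 48 h, so 1 of the 5 libraries overlaps DMSO.

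Set directly against each other, 50 and 10 µM BPS differed in 0 of the 222 genes at each time by edgeR over all 45 libraries, against backgrounds of 0.00543%, 0.0543% and 0.738%. An unadjusted p below 0.05 was found for 12, 11 and 21 genes, and DESeq2 called 2 at 48 h. At 48 h the lowest p-values were those of Gm11613 (log2 difference 0.49, adjusted p = 0.0734) and 4933431E20Rik (0.25, adjusted p = 0.0995). 4933421O10Rik was among the smallest 3 at each time, with 0.39 at 3 h (adjusted p = 0.476), 0.29 at 24 h (0.482) and 0.34 at 48 h (0.113). Gm36445 differed by 0.33 at 48 h (adjusted p = 0.172).

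The response to 50 µM BPS was also compared between times. In 0 of the 222 genes did it differ between 24 h and 3 h, 48 h and 3 h or 48 h and 24 h by the interaction test of edgeR, against backgrounds of 0%, 0.0922% and 0%, with 9, 22 and 5 genes at an unadjusted p below 0.05. A230057D06Rik, whose annotation holds the miR-344 family, had the smallest p for 48 h minus 3 h (log2 difference of the responses 0.53, adjusted p = 0.225). For Ptprv the response at 48 h was lower than at 24 h by a log2 difference of -0.22 that did not pass. The calls of Gm13111 at 3 h and of Gm36445 and Ptprv at 48 h are thus not shown to be limited to those times.

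The authors' deposited table lists its own calls for these genes. At an adjusted p below 0.05 the authors' deposited table for 50 µM BPS called 2 of the 222 at 3 h, 2 at 24 h and 10 at 48 h, and 0 for 10 µM BPS at each time. Of these the edgeR fit shared 1, 0 and 2. With 50 µM BPS the authors called 0.134%, 0.893% and 1.45% of all genes they listed, and with 10 µM 0% each time. For the controls the authors' deposited table called 118 at 24 h over 3 h, 40 at 48 h over 24 h and 111 at 48 h over 3 h. The shares of all genes listed were 22%, 10.1% and 28%. All these shares span genes of any level, while the 222 were well expressed.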

How the data were processed

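Poly-A RNA of forelimb bud cultures was sequenced, with 5 libraries in each of 9 groups. The sample titles gave group and replicate number. STAR 2.5, HTSeq 0.6.1, CASAVA 1.8, DESeq2 2 and the build mm10 are named in the submitters' processing notes, without their order or options. The release of the annotation is not given in the sources used here. Deposited by the authors were 9 tables with raw counts per gene and library, per the file headers, and those counts entered each test. The log2 fold changes and adjusted p-values that the authors deposited beside them were used only to count calls and are named as such. Their other columns were not used.

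The tables were joined to 34994 genes, and 0 of the 1319925 counts that controls repeat between tables differed. Gene types, coordinates and lengths are those of the tables, and sequences are from RefSeq tables of GRCm38.p6. The reads carry no molecular identifiers, so the floor of 3 counts covers counting error only. Tests used edgeR 4.0.16 in R 4.3.3 (quasi-likelihood, two-sided, TMM, filterByExpr, robust) on all genes of the 10 libraries of a comparison, with Benjamini-Hochberg adjustment. 50 against 10 µM and differences of responses used 1 fit of 45 libraries and 18432 genes. An adjusted p below 0.05 was a call, and the SE was taken from the log2 fold change and its F statistic. The fits were tested on simulated counts.

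Named genes are the 12 with the highest mean, those called with BPS (or the 3 with the smallest p where none was), those with the largest changes over control time, and members of lists of role. The members and the lists were chosen with earlier results of these data known, so none is independent evidence. Same-numbered libraries deviated together, with a correlation over 0.1 in each of 5 pairs, for 50 µM BPS at 3 h (0.108 to 0.494) and 24 h (0.127 to 0.491) and for 10 µM at 24 h (0.125 to 0.525). This pairing comes from the data, since the labels do not say what a number marks. The blocked values of these are given beside the results, and for 10 µM at 24 h the block called 0 genes. Alternatives were DESeq2 1.42.0, its size factors, no filter on low counts, the replicate block, all 45 libraries in 1 fit and each library left out. Counting without genes that RefSeq lists as protein-coding or pseudogene was added after seeing the data.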

Additional observations from a re-analysis of the deposited data

Results flagged for a closer look

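In 21 genes whose libraries were examined 1 by 1, 12 of 189 groups of 5 held a library whose gap to the nearest other exceeded Dixon's 95% limit, where chance gives about 1 in 20, or 9.45. With BPS, Ptprv at 50 µM and 48 h had 67.9 CPM in replicate 1 against 77.5 to 81.1 CPM in the others, and without that library its difference from DMSO did not pass. 4933421O10Rik at 10 µM and 24 h had 13.8 CPM in replicate 4 against 15.1 to 15.5 CPM. Dnm3os at 10 µM and 48 h had 387 CPM in replicate 4 against 327 to 329.9 CPM. 3110039I08Rik at 10 µM and 3 h had 415 CPM in replicate 4 against 338 to 359.9 CPM. Dleu2 at 10 µM and 24 h had 84.5 CPM in replicate 5 against 63.9 to 69.8 CPM. Gas5 at 50 µM and 24 h had 239.7 CPM in replicate 1 against 193 to 201 CPM, and C130021I20Rik there had 195 CPM in replicate 3 against 174 to 179 CPM.

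In the DMSO controls, Rian at 48 h had 898 CPM in replicate 1 against 1143 to 1204 CPM, and Mirg had 92.9 CPM in replicate 3 against 131 to 138 CPM. 2700069I18Rik at 48 h had 11.6 CPM in replicate 1 against 9.25 to 9.89 CPM. 3110039I08Rik at 24 h had 657 CPM in replicate 5 against 528 to 556 CPM, and Gm26917 at 24 h had 217 CPM in replicate 4 against 153 to 169.6 CPM. The low libraries of Rian and Mirg at 48 h are different libraries, although the genes lie in 1 cluster.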

How the results depend on the processing

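For 50 µM BPS the counts of called genes moved with the setting and rest on few libraries. At 3 h (1 gene) the count was 2 with no filter, 2 with DESeq2, 4 with the replicate block and 0 to 1 with 1 library left out. At 24 h (0 genes) it was 3 with no filter, 2 with DESeq2, 11 with the block, 1 with all 45 libraries in the fit, and 0 to 3 with 1 library left out. The 3 were reached without DMSO replicate 5. At 48 h (2 genes) it was 4 with no filter, 11 with DESeq2, 1 with the block, 9 with all 45 libraries, 1 without genes that RefSeq lists as coding or pseudogene, and 0 to 4 with 1 library left out. For 50 against 10 µM at 48 h (0 genes) DESeq2 called 2, the block 1 and the fits with 1 library left out 0 to 1.

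At 48 h over 24 h in the controls (34 genes) the replicate block called 52, 18 higher and 34 lower, all 45 libraries called 54, 18 higher and 36 lower, and leaving out 1 library gave 28 to 43. Same-numbered libraries did not pair there, with correlations of -0.00645 to 0.468, nor in the comparisons not named as paired, so the numbers are no more than a hint. The count was 103 to 121 (118 in the report) at 24 h over 3 h and 100 to 113 (112) at 48 h over 3 h with 1 library left out, and no other setting moved these 2 counts by 1.5 times. The block moved no other count of calls by that much. For 10 µM BPS each setting called 0. Of 1467 settings for 105 pairs of a named gene and a comparison, 1408 kept their side of the threshold, 46 lost a call, 13 gained one and 0 turned the direction. The cause of these shifts was not tested. Depth limits the lowest group values most, such as those of AI838599 at 3 h (1.04 to 2.54 CPM, against a floor of 0.13 to 0.197 CPM).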

Other observations

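Gm42047 (chr8:121833247-121841178, plus strand) differed by replicate number and by culture time, which was noticed after its values were seen. It had 0 reads in 15 of 45 libraries and at least 10 CPM in 22, and it was called in no comparison, with an edgeR adjusted p of 0.111 for DMSO at 48 h over 3 h (log2 difference 3.11, SE 1.45). Of the 9 libraries numbered replicate 3, 8 had 0 reads, and the ninth had 5.59 CPM, 109 reads in all. Of the 9 libraries numbered replicate 1, 2, 4 and 5, 1, 1, 2 and 3 had 0 reads, with medians of 16.9, 29.8, 22.4 and 18.6 CPM and highest values of 83.2, 77.4, 52.7 and 93.7 CPM. Among the 12 libraries of a time that carry other numbers, 2 reached 10 CPM at 3 h, 8 at 24 h and 12 at 48 h, and those at 48 h lay between 24.3 and 93.7 CPM. The ratio of its highest group mean (48.98 CPM, DMSO at 48 h) to its lowest (1.12 CPM, 10 µM BPS at 3 h) was 43.8, the largest of the 222 genes. The labels do not say what a replicate number marks, and no test of the number was made.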
